A study of Mus musculus with 4 samples.

Results

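The genes described are 10 markers that separate the capillary endothelial cell types of the mouse alveolus, 5 for aerocytes (*Car4*, *Ednrb*, *Apln*, *Fibin* and *Tbx2*) and 5 for general capillary cells (*Aplnr*, *Gpihbp1*, *Plvap*, *Kit* and *Ptprb*). They were chosen by name, with results of the comparison of genotypes already known, and make up 10 of the 45706 genes counted. The comparison of genotypes is therefore given for them as a description, with levels, fold changes and standard errors. Tests are given for further genes, whose lists were also written with earlier results of these data known.

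RNA was taken from left lung lobes at embryonic day 17 (E17) of C57BL/6 mice that received no treatment. The 2 *Myh10*+/+ lungs were wild type, and the 2 *Myh10*-/- lungs were homozygous for the missense allele L458R in the motor domain of non-muscle myosin heavy chain II-B. That allele came from a chemical mutagenesis screen and is present in every cell of the mouse. Each value comes from a whole lobe, in which capillary cells are mixed with epithelium, mesenchyme and blood.

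Alveolar capillaries are built from 2 intermingled cell types. Aerocytes are large, thin, net-like endothelial cells that lie against alveolar type 1 cells and are specialized for gas exchange, and in the mouse they emerge around birth. General capillary cells are smaller, can divide, act as progenitors and regulate vascular tone. The apelin pathway is split between them, with the ligand made by aerocytes and the receptor by general capillary cells. Vascular endothelial growth factor A from alveolar type 1 cells is known to support aerocytes.

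Total counts lay between 19116971 and 32055306 reads per lung, and values are given as CPM, read counts scaled to library size after TMM normalization. The tissue check held in every lung, with *Nkx2-1* at 434 to 454.8 CPM, *Sftpc* at 3874 to 5812 CPM and *Foxf1* at 132 to 154 CPM. This check shows the tissue and not equal levels. *Foxf1* had 154 and 153 CPM in *Myh10*+/+ lungs and 132 and 140 CPM in *Myh10*-/- lungs. The list of lung identity genes summed to 7659 and 7459 CPM in *Myh10*+/+ lungs and to 5450 and 6353 CPM in *Myh10*-/- lungs. *Myh10* had 505 and 504 CPM in *Myh10*+/+ lungs and 539 and 513 CPM in *Myh10*-/- lungs, so its count does not tell the genotypes apart. *Xist*, made from the inactive X chromosome, was abundant in 1 lung of each genotype (3914 and 4455 CPM) and near absent in the other (1.84 and 4.10 CPM). All 10 markers passed the filter of a mean of at least 5 counts. None of the 75-base windows along their transcripts occurred in a transcript of another gene, and no other gene overlapped their exons.

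*Car4* had a log2 fold change of -1.77 in *Myh10*-/- lungs. The other 9 markers lay between -0.24 for *Gpihbp1* and 0.26 for *Ptprb*, and the median over the 10 was 0.07. Both *Myh10*-/- lungs lay below both *Myh10*+/+ lungs for 2 markers and above them for 5, and the genotypes overlapped for 3. Such a separation was found downward for 24.3% and upward for 23.9% of the 18763 genes in the fit. For the tests of further genes, which used the quasi-likelihood method of edgeR and an adjusted p-value under 0.05, 1.34% of these genes were lower, 0.298% higher and 1.64% changed in either direction. The plot of marker levels by lung and the plot of fold changes show these values.

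**Figure D1:**
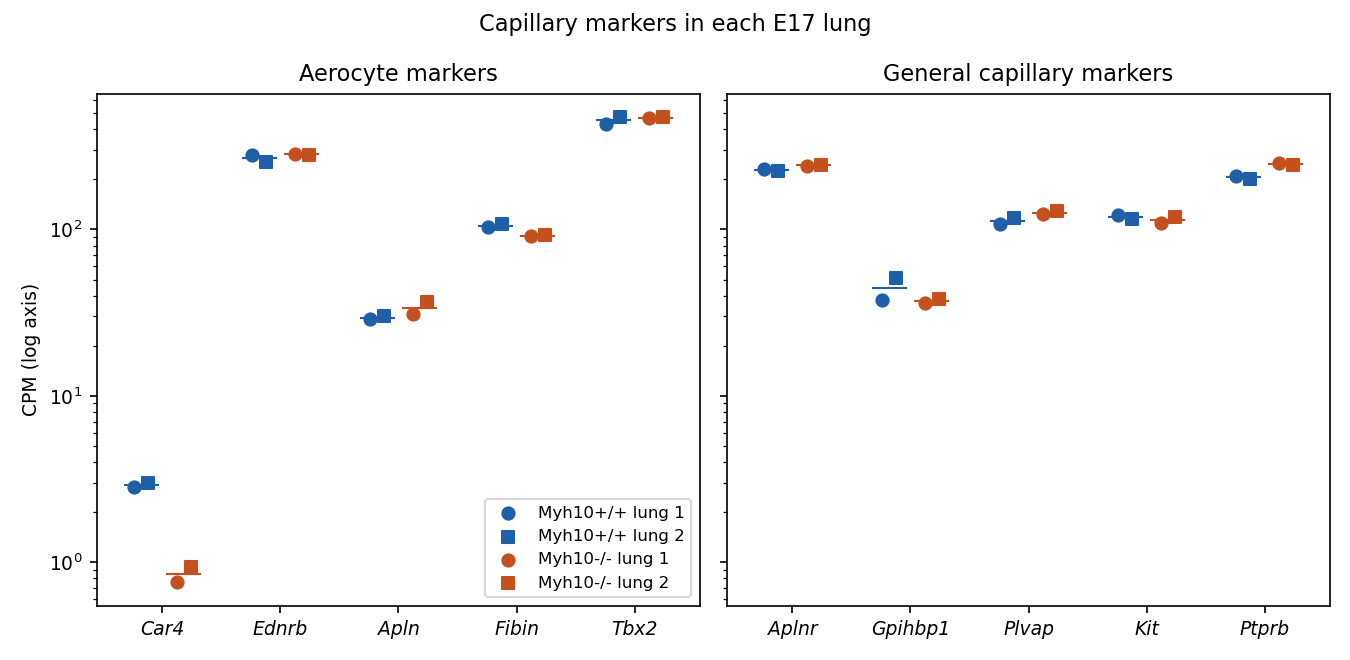
CPM of the 5 aerocyte markers and the 5 general capillary markers in each lung, on a log axis, with points for single lungs and short lines for genotype means. The 2 *Myh10*-/- lungs lie well below the 2 *Myh10*+/+ lungs for *Car4* (0.755 and 0.932 against 2.84 and 2.99 CPM), and the other 9 markers stay close together.

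Among the aerocyte markers, *Car4* encodes carbonic anhydrase 4, an enzyme anchored on the outer face of the cell membrane that interconverts carbon dioxide and bicarbonate. On GRCm38 the gene (ENSMUSG00000000805) spans chromosome 11 positions 84957786 to 84966044, plus strand. *Car4* was counted at 2.84 and 2.99 CPM in *Myh10*+/+ lungs and at 0.755 and 0.932 CPM in *Myh10*-/- lungs. Both mutant lungs were low and no value of one genotype came near the other. The log2 fold change was -1.77 (standard error, SE, 0.26), a level 3.42-fold lower.

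These levels rest on few reads, 65 and 57 in *Myh10*+/+ lungs and 21 and 30 in *Myh10*-/- lungs. The exact 95% Poisson intervals, which cover counting error only, ran from 2.19 to 3.61 CPM and from 2.27 to 3.88 CPM in *Myh10*+/+ lungs. They ran from 0.467 to 1.15 CPM and from 0.629 to 1.33 CPM in *Myh10*-/- lungs. These intervals leave out differences between lungs, which exceeded sampling noise in both genotypes, so they do not compare the genotypes. Leave-one-out fits put the log2 fold change of *Car4* between -1.94 and -1.63. In a whole lobe, fewer cells of a type and less RNA per cell cannot be told apart.

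Upstream sequence was found in RefSeq (GRCm38.p6) for 5 of the 10 markers, *Car4*, *Ednrb*, *Apln*, *Fibin* and *Kit*. The 250 bases before the RefSeq start are shown for *Car4*, the aerocyte marker with the large fall, and for *Apln*, an aerocyte marker with a higher level in both *Myh10*-/- lungs. The RefSeq start of *Car4* lies upstream of the GENCODE gene start given above, so its stretch does not reach that start, and the *Apln* stretch ends at the GENCODE start. The *Car4* stretch is chr11:84957504-84957753 on the plus strand and the *Apln* stretch is chrX:48034854-48035103 on the minus strand, both written 5′ to 3′.
*Car4* upstream: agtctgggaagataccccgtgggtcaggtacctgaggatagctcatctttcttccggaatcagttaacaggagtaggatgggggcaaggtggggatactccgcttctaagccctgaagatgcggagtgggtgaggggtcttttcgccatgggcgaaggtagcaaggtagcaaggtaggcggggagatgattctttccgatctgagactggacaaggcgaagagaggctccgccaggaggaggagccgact
*Apln* upstream: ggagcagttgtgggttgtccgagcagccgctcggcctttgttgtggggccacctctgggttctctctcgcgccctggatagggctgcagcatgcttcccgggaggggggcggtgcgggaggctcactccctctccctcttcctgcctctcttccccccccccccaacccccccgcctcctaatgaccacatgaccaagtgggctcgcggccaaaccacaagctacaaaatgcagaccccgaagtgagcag
Both strands of these windows were searched for GGAAGT (ETS factors), GGTGTGA (T-box factors), ACGTG (hypoxia-inducible factors), GTAAACA (forkhead factors) and ACAATG (SOX factors), so capitals would mark a match. No match was found in the windows of *Car4*, *Apln*, *Ednrb*, *Fibin* or *Kit*. By GENCODE coordinates the *Ednrb* window lies inside the gene, and the *Fibin* and *Kit* windows reach past the gene start into the gene. Over the 32851 upstream windows in RefSeq, 19.7% held the ETS letters, 3.33% the T-box letters, 16.6% the hypoxia letters, 3.17% the forkhead letters and 10.7% the SOX letters. The absence of these letters from a window says nothing about binding of a factor.

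*Ednrb* encodes the endothelin B receptor, a G protein-coupled receptor, and lies on chromosome 14 from 103814625 to 103844402. It had 281 and 255 CPM in *Myh10*+/+ lungs and 285 and 281 CPM in *Myh10*-/- lungs. The mutant lungs lay just above the higher wild-type lung, and the log2 fold change was 0.08 (SE 0.05). *Ednrb* is also made by cells outside the capillaries, such as neural crest derivatives. The list of neural crest genes summed to 143 and 140 CPM in *Myh10*+/+ lungs and to 132 and 125 CPM in *Myh10*-/- lungs. Most of this was *Erbb3*, at 132 and 129 CPM in *Myh10*+/+ lungs and 121 and 113 CPM in *Myh10*-/- lungs. The regulator *Sox10* was counted at no more than 0.787 CPM in any lung. The part of these cells in the count of *Ednrb* was not tested.

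*Apln* encodes the precursor of apelin, the peptide ligand of the apelin receptor, and lies on the X chromosome from 48025146 to 48034853. It was counted at 28.8 and 30.1 CPM in *Myh10*+/+ lungs and at 30.8 and 36.7 CPM in *Myh10*-/- lungs. Most of its log2 fold change of 0.20 (SE 0.09) came from *Myh10*-/- lung 2. Without that lung it was 0.07, and without *Myh10*-/- lung 1 it was 0.32.

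*Fibin*, a gene for a secreted protein first described in fin bud formation, lies on chromosome 2 from 110360917 to 110363183. It had 103 and 108 CPM in *Myh10*+/+ lungs and 91.1 and 92.7 CPM in *Myh10*-/- lungs. Both mutant lungs were lower, with a log2 fold change of -0.20 (SE 0.06). *Fibin* and *Car4* were the aerocyte markers with lower values in both *Myh10*-/- lungs.

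*Tbx2*, a T-box transcription factor of aerocytes and of lung mesenchyme, lies on chromosome 11 from 85832551 to 85841948. Its levels were 429 and 476 CPM in *Myh10*+/+ lungs and 470.0 and 472 CPM in *Myh10*-/- lungs. The mutant lungs fell between the wild-type lungs, and the log2 fold change of 0.06 (SE 0.06) turned to -0.02 without *Myh10*+/+ lung 1. The list of mesenchymal genes had a median log2 fold change of 0.02 over 12 genes, none of them past the threshold by edgeR or DESeq2, although 3 had an unadjusted p-value under 0.05. *Foxf1* passed as lower once the replicate number was a block, a pairing that the labels do not state.

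**Figure D2:**
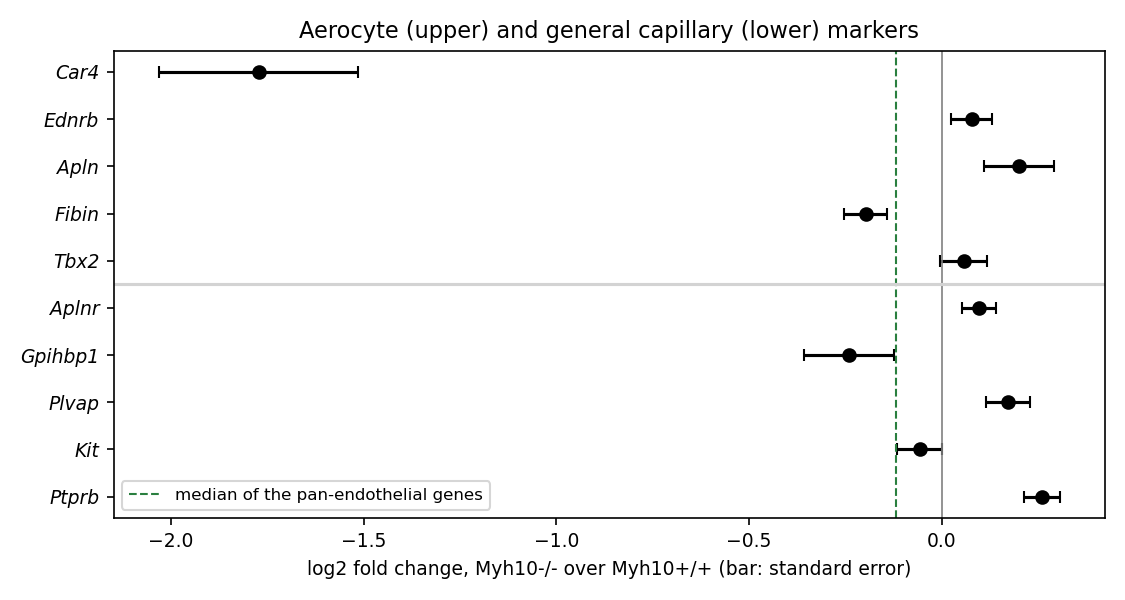
Log2 fold changes of the 10 markers with their standard errors, aerocyte markers above the grey line and general capillary markers below it; the dashed line is the median of 30 pan-endothelial genes, -0.12. *Car4* stands at -1.77 and the other markers between -0.24 and 0.26.

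Among the general capillary markers, *Aplnr* encodes the apelin receptor and lies on chromosome 2 from 85136225 to 85139923. It had 231 and 225 CPM in *Myh10*+/+ lungs and 242 and 245 CPM in *Myh10*-/- lungs. The mutant lungs were slightly higher, with a log2 fold change of 0.10 (SE 0.04). The ratio of *Apln* to *Aplnr* in CPM was 0.124 and 0.134 in *Myh10*+/+ lungs and 0.128 and 0.150 in *Myh10*-/- lungs, and the genotypes overlapped.

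*Gpihbp1* encodes the membrane-anchored protein that carries lipoprotein lipase across capillary endothelium, and lies on chromosome 15 from 75596628 to 75599481. It was counted at 37.5 and 50.9 CPM in *Myh10*+/+ lungs and at 36.4 and 38.2 CPM in *Myh10*-/- lungs. Only *Myh10*+/+ lung 2 was high, and the other wild-type lung lay between the mutant lungs. The log2 fold change of -0.24 (SE 0.12) became -0.01 without that lung. It became -0.45 without *Myh10*+/+ lung 1.

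*Plvap* encodes the protein of the diaphragms of endothelial caveolae and fenestrae, and lies on chromosome 8 from 71497765 to 71511752. It had 108 and 117 CPM in *Myh10*+/+ lungs and 124 and 129 CPM in *Myh10*-/- lungs. Both mutant lungs were higher, and the log2 fold change was 0.17 (SE 0.06).

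*Kit* encodes the receptor tyrosine kinase for stem cell factor, and lies on chromosome 5 from 75574916 to 75656722. Its levels were 121 and 115 CPM in *Myh10*+/+ lungs and 109 and 118 CPM in *Myh10*-/- lungs, with overlap between genotypes and a log2 fold change of -0.06 (SE 0.06). *Kit* is also made by mast cells. The list of mast and progenitor blood cell genes summed to 53.7 and 56.5 CPM in *Myh10*+/+ lungs and to 45.5 and 46.7 CPM in *Myh10*-/- lungs. Most of this was *Gata2* and *Hdc*. *Gata2* had 25.7 and 25.2 CPM in *Myh10*+/+ lungs and 20.01 and 21.3 CPM in *Myh10*-/- lungs. *Hdc* had 21.3 and 24.3 CPM in *Myh10*+/+ lungs and 18.3 and 16.96 CPM in *Myh10*-/- lungs. The sum therefore mainly describes these genes and not the whole list. In that list 0 of 6 tested genes passed by edgeR or DESeq2, 2 had an unadjusted p-value under 0.05, and with the replicate block *Hdc* and *Gata2* passed as lower. The list members went both ways. The mast cell protease gene *Cpa3* had 2.31 and 2.89 CPM in *Myh10*+/+ lungs and 3.23 and 3.35 CPM in *Myh10*-/- lungs (log2 fold change 0.35, adjusted p = 0.428). The protease gene *Tpsb2* overlapped between genotypes (log2 fold change 0.21), and the part of blood cells in the count of *Kit* was not tested.

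*Ptprb* encodes VE-PTP, an endothelial receptor phosphatase that acts on the angiopoietin receptor TEK and on the VE-cadherin complex, and lies on chromosome 10 from 116275523 to 116389535. It was counted at 210.1 and 202 CPM in *Myh10*+/+ lungs and at 250.1 and 243 CPM in *Myh10*-/- lungs. Both mutant lungs were higher by more than the gap within either genotype. The log2 fold change was 0.26 (SE 0.05), a ratio of 1.20. It ranged from 0.23 to 0.29 with each lung left out.

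Levels of different genes were compared per kb of exon. In *Myh10*+/+ lungs *Tbx2* stood first at 125 CPM per kb, followed by *Ednrb* at 62.8, *Aplnr* at 61.6, *Plvap* at 56.6 and *Fibin* at 46.5 CPM per kb. *Gpihbp1* had 17.3, *Ptprb* 15.4, *Kit* 13.3, *Apln* 9.35 and *Car4* 1.48 CPM per kb. *Ednrb* and *Aplnr* overlapped between the 2 wild-type lungs, as did *Gpihbp1* and *Ptprb*, and the other neighbours in this order did not. In *Myh10*-/- lungs the order was the same except that *Ptprb*, at 18.5 CPM per kb, stood above *Gpihbp1*, at 14.6 CPM per kb. *Car4* was last in both genotypes, at 0.429 CPM per kb in *Myh10*-/- lungs.

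The mean log2 CPM of the 5 aerocyte markers minus that of the 5 general capillary markers was -0.90 and -0.93 in *Myh10*+/+ lungs and -1.31 and -1.25 in *Myh10*-/- lungs, a shift of -0.36. Without *Car4* it was 0.21 and 0.17 in *Myh10*+/+ lungs and 0.16 and 0.18 in *Myh10*-/- lungs, a shift of -0.015, and the genotypes overlapped. With the median log2 CPM of each group in each lung in place of the mean, the shift was -0.28. That median is the level of the middle marker, which was *Fibin* for the aerocyte group in every lung. For the general capillary group it was *Kit* in *Myh10*+/+ lung 1 and *Plvap* in the other lungs. The value of -0.28 therefore describes these genes and not the whole groups. Summed CPM gave little weight to *Car4*, which made up 0.336% and 0.343% of the aerocyte sum in *Myh10*+/+ lungs and 0.0859% and 0.105% in *Myh10*-/- lungs. The aerocyte sum itself was 845 and 873 CPM in *Myh10*+/+ lungs and 878 and 883 CPM in *Myh10*-/- lungs. The median log2 fold change was 0.06 for the aerocyte markers and 0.10 for the general capillary markers, beside 0.0018 for all tested genes.

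**Figure D3:**
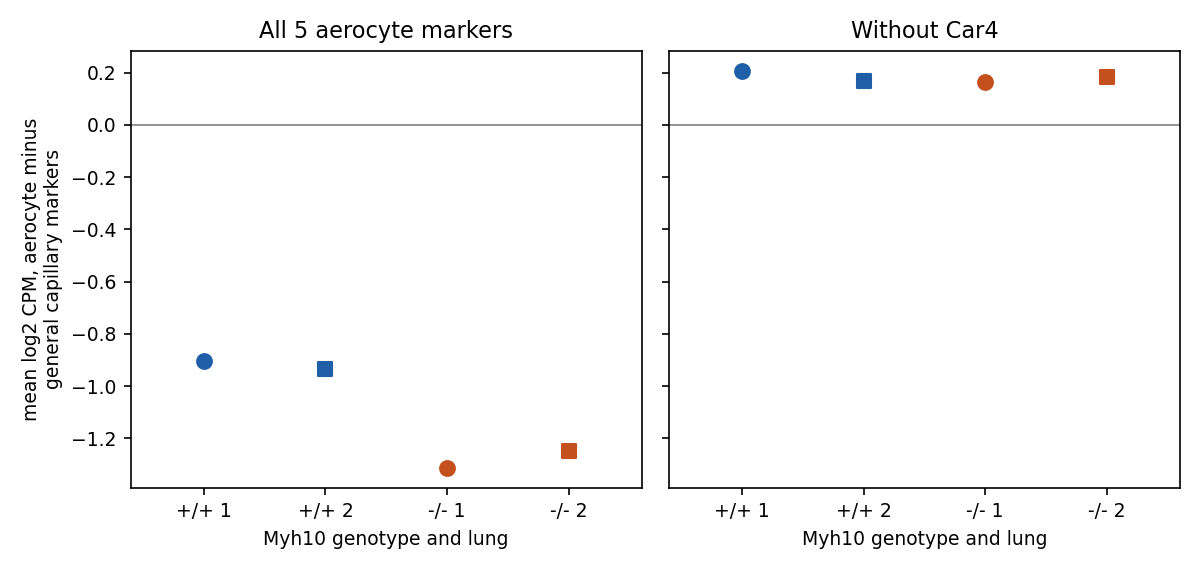
Mean log2 CPM of the aerocyte markers minus that of the general capillary markers in each lung, with all 5 aerocyte markers (left) and without *Car4* (right). The difference is lower in both *Myh10*-/- lungs (-1.31 and -1.25 against -0.90 and -0.93), and without *Car4* it lies between 0.16 and 0.21 in every lung.

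Further genes of both capillary types were taken from lists of markers, written with earlier results of these data known. Of 9 further aerocyte genes tested, 2 (22.2%) were lower, against 1.34% of all genes, and 0 were higher. Their median log2 fold change was -0.12, 8 were negative, and 6 had an unadjusted p-value under 0.05, all lower. Both *Myh10*-/- lungs were below both *Myh10*+/+ lungs for 6 of them (66.7%), against 24.3% of all tested genes. Among these genes, *Kdr* and *Cd34* are also on the pan-endothelial list, whose median was -0.12 too. *Emp2*, an epithelial membrane protein gene also strongly expressed by alveolar type 1 cells, had 789.9 and 739 CPM in *Myh10*+/+ lungs and 545 and 618 CPM in *Myh10*-/- lungs (log2 fold change -0.39, SE 0.08, adjusted p = 0.0311). *Igfbp7*, an insulin-like growth factor binding protein gene, had 72.3 and 68.0 CPM in *Myh10*+/+ lungs and 50.8 and 58.1 CPM in *Myh10*-/- lungs (log2 fold change -0.36, SE 0.08, adjusted p = 0.0466). Neither call held in all leave-one-out fits. *Emp2* lost it without *Myh10*+/+ lung 1, *Myh10*+/+ lung 2 or *Myh10*-/- lung 1 (adjusted p = 0.0664, 0.138 and 0.198), and *Igfbp7* without *Myh10*+/+ lung 1 or *Myh10*-/- lung 1 (adjusted p = 0.133 and 0.0627).

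*Kdr*, the main receptor of vascular endothelial growth factor A and especially abundant in aerocytes, had 255 and 245 CPM in *Myh10*+/+ lungs and 238 and 229 CPM in *Myh10*-/- lungs. Its log2 fold change of -0.10 (SE 0.05, adjusted p = 0.299) did not pass. *Rprml* had 0 reads in every lung, which allows up to 0.0932 to 0.157 CPM depending on the lung, and was not tested.

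Of 8 further general capillary genes, 0 passed by edgeR or DESeq2, 2 had an unadjusted p-value under 0.05, and the median log2 fold change was -0.03. *Cd93*, a gene for an endothelial adhesion receptor, passed with the replicate block (log2 fold change -0.18, adjusted p = 0.0424; without the block adjusted p = 0.122). With the replicate numbers crossed, 0 of these genes passed. *Cd93* was named after its values were seen.

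Of 30 pan-endothelial genes, 2 (6.67%) were lower and 0 higher, against 1.34% and 0.298% of all genes. A negative log2 fold change was found for 25 of them, and the median was -0.12. An unadjusted p-value under 0.05 was found for 13, all lower. Both *Myh10*-/- lungs were below both *Myh10*+/+ lungs for 18 of them (60.0%), against 24.3% of all tested genes. *Pecam1*, the general endothelial marker, had 384 and 370.0 CPM in *Myh10*+/+ lungs and 339.7 and 340.3 CPM in *Myh10*-/- lungs (log2 fold change -0.15, SE 0.05, adjusted p = 0.157). The lower genes were *Podxl*, a sialomucin gene (log2 fold change -0.37, adjusted p = 0.00743), and *Cldn5*, the endothelial tight junction claudin (log2 fold change -0.34, adjusted p = 0.0379). *Cldn5* did not pass without *Myh10*+/+ lung 2 (adjusted p = 0.0937). With the replicate block 4 genes passed, *Esam* and *S1pr1* besides *Podxl* and *Cldn5*. *Icam2* (log2 fold change -0.32) did not pass by edgeR (adjusted p = 0.0786) or with the replicate block, but did by DESeq2 (adjusted p = 0.0338). *Icam2* and *S1pr1* also passed with robust = TRUE in the edgeR fit and with chromosomes X, Y and MT left out. With the replicate numbers crossed, *Icam2* passed and *S1pr1* did not.

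Set against the pan-endothelial median, *Car4* was lower by a log2 value of -1.65, *Gpihbp1* by -0.12 and *Fibin* by -0.08. The other 7 markers were then above 0, from 0.06 for *Kit* to 0.38 for *Ptprb*.

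**Figure D4:**
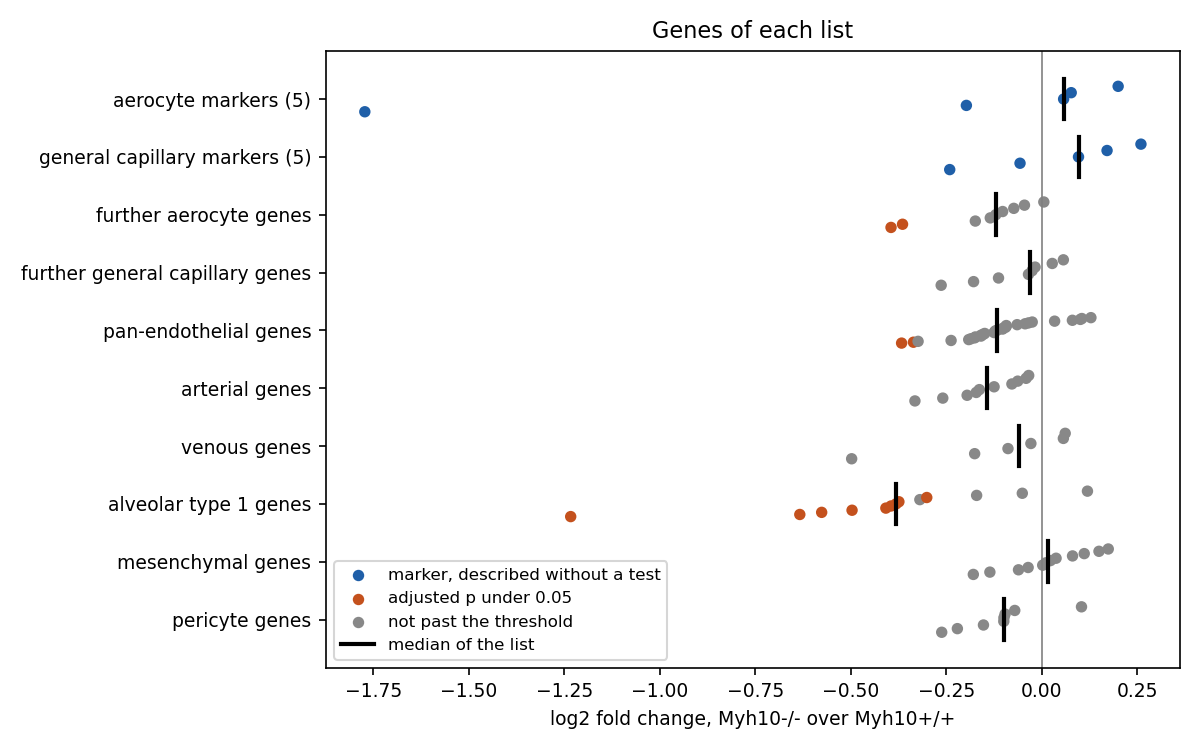
Log2 fold changes of the genes of 10 lists, one point per gene, with the median of each list as a black bar, the 10 markers in blue without a test, and other genes past an adjusted p-value of 0.05 in orange. The aerocyte markers have a median of 0.06 with *Car4* far to the left, the pan-endothelial genes are centred on -0.12 and the alveolar type 1 genes on -0.38.

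Alveolar type 1 cells, the epithelial neighbours of aerocytes, had lower marker levels in the same lungs, on a list written with earlier results known. Of 13 alveolar type 1 genes, 9 (69.2%) were lower and 0 higher by edgeR, against 1.34% and 0.298% of all genes, and 6 were lower by DESeq2. The list summed to 5597 and 5371 CPM in *Myh10*+/+ lungs and to 4184 and 4667 CPM in *Myh10*-/- lungs. Among these 9, the log2 fold changes ran from -1.23 for the water channel gene *Aqp5* to -0.30 for *Lmo7*, with *Rtkn2* at -0.63, *Ager* at -0.58, *Clic5* at -0.50, *Hopx* at -0.41, *Emp2* at -0.39, *Akap5* at -0.38 and *Pdpn* at -0.37. Of the other 4 genes on the list, *Igfbp2* was above its wild-type values in both *Myh10*-/- lungs (log2 fold change 0.12, adjusted p = 0.467), *Cav1* stood at -0.05 and *Sema3b* at -0.32 (adjusted p = 0.072). *Vegfa* had 625 and 596 CPM in *Myh10*+/+ lungs and 524 and 562 CPM in *Myh10*-/- lungs. It did not pass, at a log2 fold change of -0.17 (SE 0.07, adjusted p = 0.223). The relation of these values to *Car4* was not tested. Of 8 lung identity genes, 2 (25%) were also lower by edgeR, against 1.34% of all genes. These were the surfactant genes *Sftpd* and *Sftpb* (log2 fold changes -1.06 and -0.48), and *Nkx2-1* was not lower (0.02, adjusted p = 0.881).

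*Car4* is also made outside the capillaries, for example by alveolar macrophages. The list of leukocyte genes summed to 143 and 130.2 CPM in *Myh10*+/+ lungs and to 124 and 127 CPM in *Myh10*-/- lungs. In it 1 of 9 tested genes (11.1%) was lower, against 1.34% of all genes, and 0 were higher. This was the neutrophil gene *S100a9* (log2 fold change -0.55, adjusted p = 0.0326), which DESeq2 did not call. The median log2 fold change of the list was -0.19, and 6 genes were negative and 3 positive. An unadjusted p-value under 0.05 was found for 4 genes, all lower. Both *Myh10*-/- lungs were below both *Myh10*+/+ lungs for 4 genes (44.4%), against 24.3% of all tested genes. Of the macrophage genes 0 passed, with log2 fold changes of -0.22 for *Csf1r*, -0.03 for *Adgre1*, 0.07 for *Mrc1* and 0.08 for *Cd68*. The part of these cells in the level of *Car4* was not tested.

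The ligands, receptors, enzymes and relatives of the markers made up 59 genes, of which 55 were tested. By edgeR 0 were lower and 1 was higher, against 1.34% and 0.298% of all genes. Their median log2 fold change was -0.07, and 19 had an unadjusted p-value under 0.05, 15 of them lower. The higher gene was *Svep1*, which encodes a large matrix protein that binds TIE1, with 129 and 119 CPM in *Myh10*+/+ lungs and 158 and 145 CPM in *Myh10*-/- lungs (log2 fold change 0.29, SE 0.06, adjusted p = 0.0343). *Svep1* did not pass without *Myh10*+/+ lung 2 (adjusted p = 0.212). By DESeq2 the caveolar coat gene *Cavin1* passed as well, as lower, with an edgeR log2 fold change of -0.25 (adjusted p = 0.115). Without *Myh10*-/- lung 2 the number of genes past the threshold was 10.

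**Figure D5:**
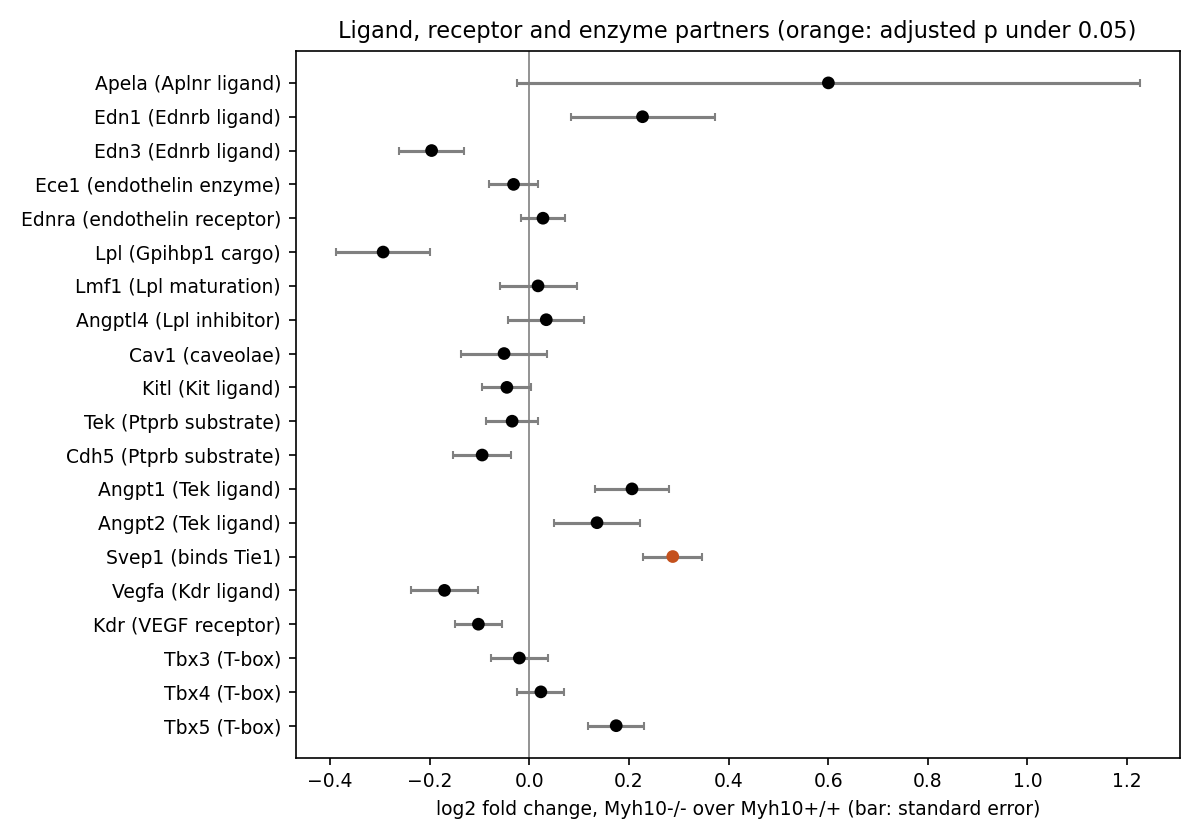
Log2 fold changes with standard errors of 20 partners of the markers, with *Svep1*, which passed an adjusted p-value of 0.05, in orange. *Svep1* stands at 0.29, *Lpl* at -0.29, and *Apela*, with few reads, at 0.60 with a standard error of 0.62.

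For apelin, the second ligand of the receptor, *Apela*, was counted at 0.0873 to 0.420 CPM, far below *Apln* in every lung. For endothelin, *Edn1* had 13.5 and 17.7 CPM in *Myh10*+/+ lungs and 20.9 and 15.5 CPM in *Myh10*-/- lungs, with overlap (log2 fold change 0.23, adjusted p = 0.467). *Edn3*, named after its values were seen because it was the endothelin ligand gene with the highest count, had 129.5 and 126 CPM in *Myh10*+/+ lungs and 104 and 119 CPM in *Myh10*-/- lungs (log2 fold change -0.20, adjusted p = 0.155). The converting enzyme gene *Ece1* and the endothelin A receptor gene *Ednra* had log2 fold changes of -0.03 and 0.03.

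For the lipase pathway of *Gpihbp1*, the lipoprotein lipase gene *Lpl* had 50.1 and 48.0 CPM in *Myh10*+/+ lungs and 35.9 and 44.1 CPM in *Myh10*-/- lungs. Its log2 fold change of -0.29 (SE 0.09, adjusted p = 0.148) did not pass. The maturation factor gene *Lmf1* stayed between 18.1 and 18.9 CPM and the inhibitor gene *Angptl4* between 18.5 and 19.3 CPM. *Cav1*, the main structural gene of caveolae, had a log2 fold change of -0.05 (adjusted p = 0.823).

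The ligand gene of *Kit*, *Kitl*, overlapped between genotypes at 230.3 to 249 CPM (log2 fold change -0.05, adjusted p = 0.700). For the pathway of *Ptprb*, *Tek* had 122 and 118 CPM in *Myh10*+/+ lungs and 118 and 116 CPM in *Myh10*-/- lungs (log2 fold change -0.03, adjusted p = 0.797). *Cdh5*, the gene of VE-cadherin, also overlapped between genotypes (log2 fold change -0.095, adjusted p = 0.455). Of the TEK ligand genes, *Angpt1* stood at 0.21 on the log2 scale (adjusted p = 0.186) and *Angpt2* at 0.14 (adjusted p = 0.468). Neither passed, although *Angpt1* did without *Myh10*-/- lung 2 (adjusted p = 0.0183).

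The T-box genes *Tbx3*, *Tbx4* and *Tbx5* had log2 fold changes of -0.02, 0.02 and 0.17, none past the threshold. Among 11 other carbonic anhydrase genes tested, 0 passed by edgeR or DESeq2, and 2 had an unadjusted p-value under 0.05. The cytosolic enzyme gene *Car2* was by far the best counted of the family, at 273 and 252 CPM in *Myh10*+/+ lungs and 247 and 259 CPM in *Myh10*-/- lungs (log2 fold change -0.05, adjusted p = 0.668). *Car8*, a relative without enzyme activity, had a log2 fold change of -0.25 (adjusted p = 0.115), and *Car13* one of 0.18 (adjusted p = 0.373).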

How the data were processed

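RNA from the left lung of 2 *Myh10*+/+ and 2 *Myh10*-/- embryos was compared, grouped by the labels, which give neither litter nor sex. The authors deposited raw counts per Ensembl gene, made from stranded single-end libraries with Reaper for trimming, STAR 2.4.0a for alignment to GRCm38 and featureCounts 1.5.1 for counting on exons, per the submitters' processing notes. Only reads assigned to a single gene entered the table, and whether counting used strand is not given in the sources used here. The replicate lungs of each genotype differed by more than sampling noise, and 2 lungs per genotype limit the precision.

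Genotypes were compared by quasi-likelihood in edgeR 4.0.16 under R 4.3.3, with TMM factors, genotype as the only term and a minimum mean of 5 counts per gene, and with Benjamini-Hochberg adjustment over all tested genes. It was checked on simulated counts. It recovered 46 of 77 changes of 0.5 on the log2 scale, 45 of 67 of 1 and 52 of 56 of 2. Of 152 calls 9 were false. Changes smaller than 0.5 were not simulated, so a gene that did not pass may still have changed. CPM used these factors, log2 CPM a prior count of 2, and CPM per kb the union of exons in GENCODE M21 (GRCm38). Of the listed genes, 7 appear under older symbols and were matched by Ensembl ID.

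The markers and lists were chosen with earlier results of these data known. Named were the 10 markers, listed genes past an adjusted p-value of 0.05, direct partners of the markers, the T-box genes, carbonic anhydrase genes over 10 CPM and genes checking tissue and genotype. *Edn3*, *Cd34*, *Cd93*, *Esam*, *S1pr1*, *Icam2*, *Cavin1*, *Hdc*, *Gata2*, *Cpa3*, *Sox10*, *Erbb3*, *Tpsb2*, *Csf1r*, *Adgre1*, *Mrc1*, *Cd68*, *Igfbp2*, *Sema3b*, *Rprml*, *Gja4*, *Lyve1* and *Mki67* were named outside this rule, after their values were seen. Lists covered lung identity, both capillary types, pan-endothelial, arterial, venous, lymphatic, alveolar type 1, mesenchymal, pericyte, mesothelial, neural crest, mast, leukocyte and cell cycle genes. The alternatives were other normalizations, filters and dispersion settings, DESeq2 1.42.0, the replicate number as a block, and leaving out each lung.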

Additional observations from a re-analysis of the deposited data

How the results depend on the processing

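Of 139 recalculated fold changes of single markers, 127 moved by less than the spread between replicates. Other normalizations and filters barely changed them and robust = TRUE left them unchanged, so this total says little about stability. Centring on the pan-endothelial median moved *Ednrb*, *Fibin*, *Tbx2*, *Aplnr*, *Plvap*, *Kit* and *Ptprb* by more than that spread. Leaving out a lung did so for *Car4*, *Ednrb*, *Apln*, *Tbx2* and *Gpihbp1*. *Car4* stood at -1.78 with DESeq2. When all genes with a minimum of 1 count entered, 688 genes were lower and 474 higher, among them 1 further general capillary gene, 7 pan-endothelial genes and 6 partners. The number of higher genes was 111 with library totals, which made 32.3% of calls upward against 18.2% with TMM, 90 when chromosomes X, Y and MT were left out, 135 with robust = TRUE and 85 with DESeq2. Of the pan-endothelial genes 4 passed without chromosomes X, Y and MT, and 4 with robust = TRUE, and 2 partners passed with DESeq2. The median of the aerocyte markers was -0.068 without chromosomes X, Y and MT, since *Apln* was then absent, and 0.18 when centred on the pan-endothelial median, where that of the general capillary markers was 0.21. The shift between marker groups was -0.015 without *Car4*. It was -0.28 with medians of levels in place of means, where *Fibin* alone set the aerocyte value in every lung. The cause of the other changes was not tested.

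Same-numbered lungs had deviations with a correlation of -0.21 across genes, and -0.02 without chromosomes X, Y and MT, and the labels state no pairs. With the replicate block, 466 genes were lower and 244 higher, and 1 further general capillary and 4 pan-endothelial genes passed. The replicate block joined lungs that differed in *Xist*, which was high in *Myh10*+/+ lung 1 and *Myh10*-/- lung 2. Crossing the numbers joined lungs of like *Xist* level, an alternative chosen after seeing the data. With the numbers crossed, 320 genes were lower and 95 higher. Of the genes named above as passing with the replicate block but not in the main fit, *Hdc* passed here too, and *Foxf1*, *Gata2*, *Cd93*, *Esam* and *S1pr1* did not.

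With each lung left out in turn, and the lone lung assumed to vary like the others, 175 to 875 genes were lower and 31 to 768 higher, the extremes being without *Myh10*+/+ lung 2 and without *Myh10*-/- lung 2. The further aerocyte genes past the threshold numbered 0 to 3, the pan-endothelial genes 1 to 7 and the partners 0 to 10. The median of the aerocyte markers lay between -0.015 and 0.064 and that of the general capillary markers between 0.08 and 0.11, and the shift between marker groups between -0.39 and -0.33. Low counts limit *Car4*, and 2 lungs per genotype limit the rest.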

Other observations

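No arterial or venous gene passed the threshold. All 10 arterial genes had a negative log2 fold change, with a median of -0.14, 3 with an unadjusted p-value under 0.05, and 0 past the threshold by edgeR or DESeq2. The lowest of them was *Gja4*, a connexin gene of arteries, with 35.8 and 34.6 CPM in *Myh10*+/+ lungs and 24.9 and 30.9 CPM in *Myh10*-/- lungs (log2 fold change -0.33, adjusted p = 0.113). Of 6 venous genes tested, 0 passed by either tool and 1 had an unadjusted p-value under 0.05, with a median of -0.06. The lymphatic list had a median of 0.02, and 1 of its 7 genes (14.3%) was lower, against 1.34% of all genes. That gene, *Pdpn*, is also on the alveolar type 1 list. *Lyve1* overlapped between genotypes (log2 fold change 0.05, adjusted p = 0.803).

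Pericyte genes, which mark the cells that wrap capillaries, had a median log2 fold change of -0.10 over 8 genes, 7 of them (87.5%) lower in both *Myh10*-/- lungs, against 24.3% of all tested genes. None passed by edgeR or DESeq2, and 3 had an unadjusted p-value under 0.05. Cell cycle genes all had positive log2 fold changes, with a median of 0.17 over 10 genes. By edgeR 1 of the 10 (10%) was higher, against 0.298% of all genes. This was *Bub1*, a mitotic checkpoint kinase gene (log2 fold change 0.31, adjusted p = 0.0393). *Mki67* passed by DESeq2 but not by edgeR (edgeR log2 fold change 0.30, adjusted p = 0.077). Of 5 mesothelial genes 1 (20%) was lower by edgeR, against 1.34% of all genes. It was *Msln*, the gene of mesothelin, which DESeq2 did not call (log2 fold change -0.53, edgeR adjusted p = 0.0196). Of 5 neural crest genes 0 passed by either tool, with 1 at an unadjusted p-value under 0.05.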
